A study of Mus musculus with 12 samples.

Results

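The interferon-stimulated genes of mouse pre-B cells carrying BCR-ABL1 were followed across 12 RNA-seq libraries. Members were chosen by gene symbol alone, with no measured value in the rule, but earlier results of these data were known at that time. The rule took the Ifi, Ifit, Ifitm, Isg, Oas, Mx, Gbp and Irgm families, Parp9, Parp10, Parp12 and Parp14, transcription factors such as Stat2, Irf1, Irf7 and Irf9, and a set of single genes such as Usp18, Zbp1, Bst2 and Eif2ak2. It found 55 members among the 12151 genes of the table. Rsad2, which the rule also names, was not analysed here.

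All 12 libraries came from pre-B cells of Ctnnb1Ex3fl/+ mice, which carry 1 copy of Ctnnb1 with exon 3 between loxP sites. That exon encodes the residues whose phosphorylation marks β-catenin for degradation, and its removal by Cre leaves a stable protein. The cells were transformed with BCR-ABL1, the fusion kinase of Philadelphia chromosome-positive leukemia, and electroporated with Cas9 ribonucleoproteins carrying a nontargeting guide (WT) or guides to Ikzf1 and Ikzf3 (KO), which encode the zinc finger factors Ikaros and Aiolos. They were then transduced with ERT2, a tamoxifen-binding receptor domain, or with Cre-ERT2, the inducible recombinase. This gave 4 groups of 3 libraries, named ERT2 WT and ERT2 KO for the control vector, and Cre-ERT2 WT and Cre-ERT2 KO for the recombinase. Edited lines were grown from single cells and sorted on GFP, and the labels do not say whether the 3 libraries of a group are separate clones or cultures. The p-values then measure only the spread between these libraries, which may be technical. A collection time of day 1 after 4-hydroxytamoxifen is named in a protocol text written for ChIP-seq. The activity of Cre itself and the loss of exon 3 cannot be told apart in the Cre-ERT2 against ERT2 comparison. In KO against WT, the editing and differences between lines grown from single cells cannot be told apart from these labels.

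Interferons are cytokines that switch on antiviral and antimicrobial genes. Type I interferons act through the receptor pair Ifnar1 and Ifnar2 and a complex with Stat2 and Irf9 that binds the interferon-stimulated response element (ISRE), whereas interferon-γ acts through Ifngr1 and Ifngr2 and the gamma-activated site (GAS). The induced genes include RNA sensors, inhibitors of viral translation and entry, and large families of GTPases that attack the vacuoles of intracellular microbes, and many are also transcribed at a basal level without infection.

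The values are log2 normalised expression values whose transformation is not stated, and the table holds no read counts, so the depth of each library is unknown. Library medians lay between 9.06 and 9.11. Spread within groups was smallest for the weakest genes, with a median SD of 0.016 below a level of 5 against 0.046 from 8 to 10, so small differences of weak genes were called readily. The edited genes were checked first. Ikzf3 was lower in KO by 0.65 ± 0.043 (SE) in the ERT2 libraries, and Ikzf1 was higher by 1.01 ± 0.018, so its RNA level went against a loss of the transcript. The study reports the deletion of these factors by western blot in its single-cell lines, and protein was not measured in these libraries. KO stands below for the libraries labelled KO. All 10 pre-B cell markers had a mean level above 8. Of markers of other cells, 2 of 12 for macrophages and neutrophils (Itgam and Lyz2) and 2 of 10 for T and NK cells (Nkg7 and Klrb1c) were in the table, each with a mean level below 8. Their summed unlogged values were 194 to 196 in ERT2 WT and 350 to 370 in ERT2 KO for the first list, where Lyz2 was higher in KO by 0.99 ± 0.035 and Itgam lower by 0.15 ± 0.018 (log2). For the second they were 102 in ERT2 WT and 393 to 415 in ERT2 KO, a difference carried by Nkg7, since Klrb1c was not called. For plasmacytoid dendritic cells, 3 of 7 markers (Ly6d, Flt3 and Tcf4) summed to 2866 to 3079 in ERT2 WT and 4694 to 4882 in ERT2 KO. That list was split, with Tcf4 higher in KO by 0.77 ± 0.035 and Ly6d and Flt3 lower, at log2 differences of -0.99 ± 0.021 and -0.23 ± 0.044. Of 7 stromal and endothelial markers, 1 (Pecam1) was in the table, at 1690 to 1814 in ERT2 WT and 854 to 861 in ERT2 KO, and of 8 erythroid and megakaryocyte markers 0 were. The pre-B marker sum was 115570 to 116302 in ERT2 WT and 89544 to 89754 in ERT2 KO. Of the 10 genes, 7 (70%) were called lower in KO with ERT2, against 29.3% of all genes, and 1 (10%) higher. By at least 0.5, 3 (30%) were lower, against 3.05%, and the median log2 difference was -0.26. With Cre-ERT2, 8 (80%) were called lower in KO, against 28.6%, and 1 (10%) higher. The part of these shifts in the results on KO was not tested.

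The members differed widely in level. Of the 55, 28 had a mean above 8, 14 lay from 5 to 8 and 13 were below 5. The highest was Gbp7 at 13.75 and the lowest was Mx1, the classical anti-influenza GTPase, at 2.55. Isg15, Usp18 and Irf7, textbook reporters of type I interferon, were also weak here, with means of 4.56, 4.46 and 4.29. The median level of the members was 8.30 against 9.08 for all genes.

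Upstream sequences are shown for 6 members that the comparisons below turn on, 4 with an ISRE letter match and 2 without. Windows hold the 250 bases before the RefSeq transcription start in GRCm38.p6, and windows were found for 38 of the 55 members. The ISRE was searched as GAAANNGAAA and the GAS as TTCNNNGAA, on both strands. Capitals mark the matches, which overlap each other in Bst2. Gbp2 (chr3:142620413-142620662, plus strand), Gbp7 (chr3:142530086-142530335, plus strand), Igtp (chr11:58199306-58199555, plus strand) and Bst2 (chr8:71537473-71537722, minus strand) carry an ISRE match, and Gbp7, Igtp and Bst2 carry a GAS match as well. The windows of Ifih1 (chr2:62646256-62646505, minus strand) and Ifi47 (chr11:49076337-49076586, plus strand) hold neither.
Gbp2: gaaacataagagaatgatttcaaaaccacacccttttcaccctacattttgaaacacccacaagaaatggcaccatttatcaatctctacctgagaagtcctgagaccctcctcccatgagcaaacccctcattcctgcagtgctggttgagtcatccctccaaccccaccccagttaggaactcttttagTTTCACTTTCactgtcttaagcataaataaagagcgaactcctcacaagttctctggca
Gbp7: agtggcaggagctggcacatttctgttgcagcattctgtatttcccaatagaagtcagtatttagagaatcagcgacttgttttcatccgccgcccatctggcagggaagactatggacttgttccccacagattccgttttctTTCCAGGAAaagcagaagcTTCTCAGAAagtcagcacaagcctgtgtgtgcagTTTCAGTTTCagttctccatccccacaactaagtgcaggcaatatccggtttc
Igtp: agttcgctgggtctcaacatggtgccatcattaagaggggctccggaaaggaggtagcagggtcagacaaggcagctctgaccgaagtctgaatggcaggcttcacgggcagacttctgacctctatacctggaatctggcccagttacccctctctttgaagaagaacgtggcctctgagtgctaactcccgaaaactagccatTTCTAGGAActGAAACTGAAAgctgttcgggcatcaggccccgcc
Bst2: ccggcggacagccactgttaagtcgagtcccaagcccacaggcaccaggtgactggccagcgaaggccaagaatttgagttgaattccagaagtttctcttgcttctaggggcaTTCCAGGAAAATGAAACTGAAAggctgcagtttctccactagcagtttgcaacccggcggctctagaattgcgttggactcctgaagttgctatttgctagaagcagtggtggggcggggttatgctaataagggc
Ifih1: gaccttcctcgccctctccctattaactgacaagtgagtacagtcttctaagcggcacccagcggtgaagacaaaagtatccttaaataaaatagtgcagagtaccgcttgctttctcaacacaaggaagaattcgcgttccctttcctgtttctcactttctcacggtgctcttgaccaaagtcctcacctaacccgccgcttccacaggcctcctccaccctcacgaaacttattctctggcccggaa
Ifi47: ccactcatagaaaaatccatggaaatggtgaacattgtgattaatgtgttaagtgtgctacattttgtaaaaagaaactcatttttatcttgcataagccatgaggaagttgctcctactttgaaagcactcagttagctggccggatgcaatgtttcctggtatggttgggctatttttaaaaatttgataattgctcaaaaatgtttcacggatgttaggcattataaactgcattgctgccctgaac

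An ISRE match stood in 37.8% of the 45 windows of members and in 2.65% of all 10927 windows of genes in the table. For the GAS the shares were 22.2% and 6.08%, and for GGGAA, the core of the Ikaros motif, 66.7% and 58.3%. Among members with a window, 12 of the 24 that were lower in KO in the ERT2 libraries and 4 of the 9 that were higher held an ISRE match. Whether the match bears on the direction of change was not tested. No match means only that these letters are missing from this window.

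KO against WT asked how the labelled loss of Ikaros and Aiolos changed these genes, in the ERT2 libraries without Cre. More members were lower than higher. Of 55 members, 37 (67.3%) fell and 9 (16.4%) rose at an adjusted p under 0.05, where the background over all genes was 29.3% lower and 29.8% higher (limma, Benjamini-Hochberg adjustment over 12151 genes). By at least 0.5 on the log2 scale, 14 members (25.5%) fell against 3.05% of all genes, and 2 (3.64%) rose against 4.28%. The median log2 difference was -0.13 over the members and 0.0016 over all genes. In bulk RNA, a lower level in each cell and fewer cells with the transcript cannot be told apart.

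**Figure D1:**
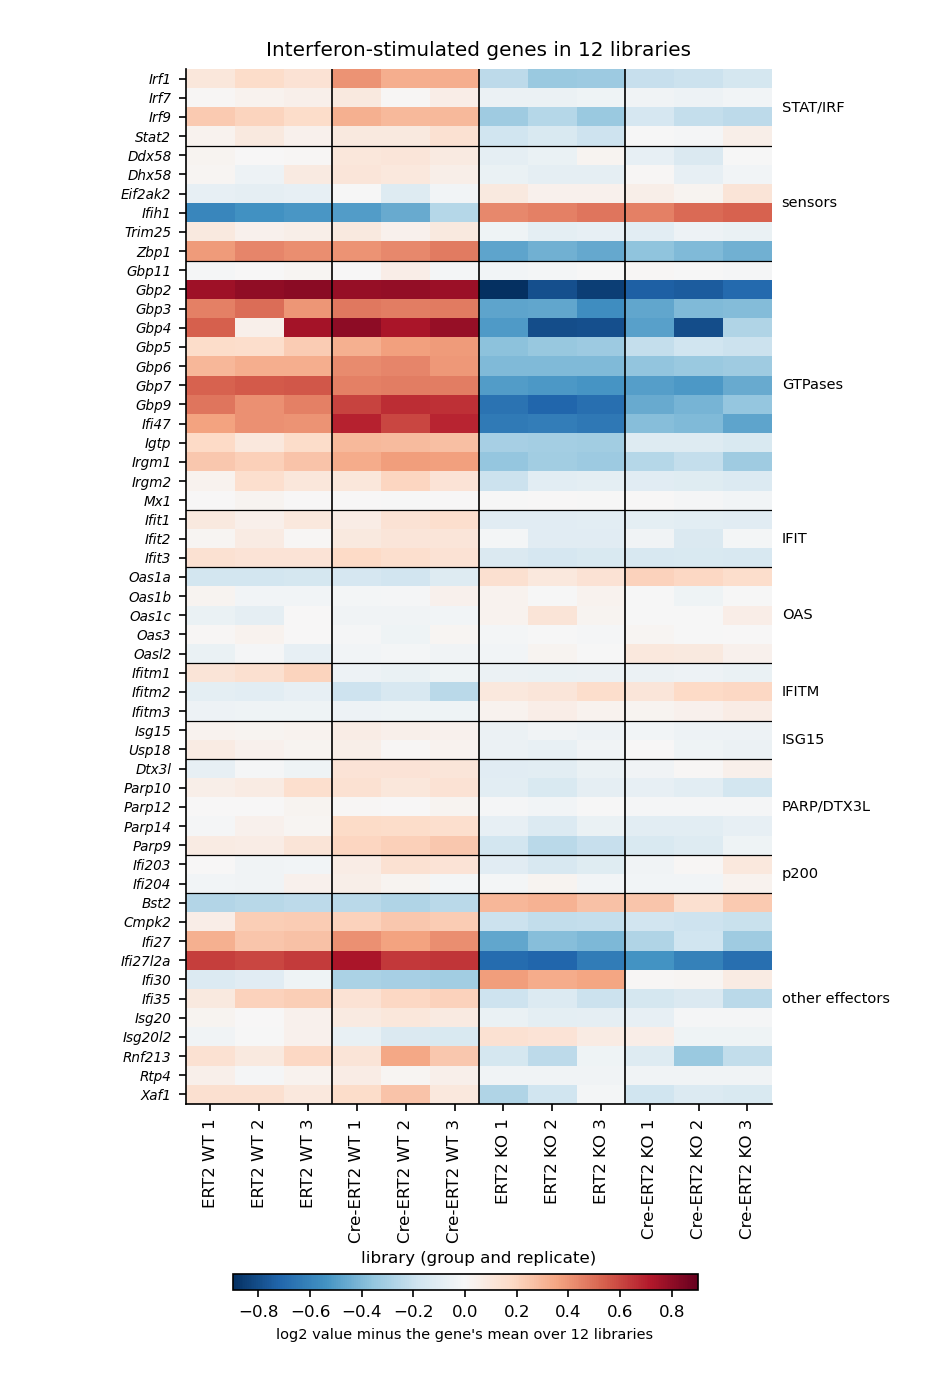
Heat map of 54 interferon-stimulated genes (rows, grouped by role) in the 12 libraries (columns), as the log2 value minus the gene's mean over all 12. The strongest colours separate WT from KO, with Gbp2, Gbp4, Gbp9, Ifi47 and Ifi27l2a high in WT and Ifih1 high in KO.

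The same comparison in the Cre-ERT2 libraries shares no library with that in the ERT2 libraries, but both may come from the same edited lines. There, 39 members (70.9%) fell and 9 (16.4%) rose, against 28.6% and 30.4% of all genes. By at least 0.5, 15 (27.3%) fell and 1 (1.82%) rose, against 3.14% and 4.32%. The median over the members was -0.16. Of the members that fell, 36 did so in both vectors, which is 97.3% of the ERT2 list and 92.3% of the Cre-ERT2 list. Of those that rose, 8 did so in both, 88.9% of either list. The same overlap over all genes was not computed, so these shares have no background beside them. Dtx3l, Parp12 and Ddx58 were called lower with Cre-ERT2 alone and Ifitm1 with ERT2 alone.

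Transcription factors that carry the interferon signal to DNA were lower in KO. Irf1, an interferon-γ-induced activator, was at 9.58, 9.64 and 9.60 in ERT2 WT and 9.24, 9.14 and 9.15 in ERT2 KO. It fell by 0.43 ± 0.034 with ERT2 and by 0.54 ± 0.034 with Cre-ERT2 on the log2 scale. Irf9, the DNA-binding partner of Stat2, was at 8.90, 8.86 and 8.82 in ERT2 WT and 8.34, 8.40 and 8.32 in ERT2 KO. Its differences were -0.51 and -0.50, each ± 0.031. Stat2 fell less, by 0.22 ± 0.028 with ERT2 and by 0.092 ± 0.028 with Cre-ERT2, and the latter call was lost without Cre-ERT2 WT replicate 3 (adjusted p = 0.059, limma) or Cre-ERT2 KO replicate 2 (adjusted p = 0.050). Irf7 was weak throughout and fell by 0.077 and 0.086. All KO libraries lay below all WT libraries of the same vector for each of these factors. Of all genes, 29.3% were called lower in KO with ERT2 and 28.6% with Cre-ERT2. The share of all genes whose libraries separate in this way was not computed.

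The dynamin-like and immunity-related GTPases held most of the larger falls. These proteins bind and disrupt membranes around intracellular pathogens. Of 13 members, 11 (84.6%) fell and 0 rose in each vector. Falls over all genes were 29.3% with ERT2 and 28.6% with Cre-ERT2. By at least 0.5, 9 (69.2%) fell in each vector, against 3.05% and 3.14%. Their median log2 difference was -0.72 with ERT2 and -0.75 with Cre-ERT2. Gbp11 and Mx1, the weakest members of the family here, were not called in either vector.

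Gbp2 changed most of all 55 members. It was at 11.30, 11.34 and 11.35 in ERT2 WT and 9.64, 9.75 and 9.70 in ERT2 KO. The log2 difference was -1.64 ± 0.029 (adjusted p = 1.6e-13, limma). If the scale is plain log2, the level in KO would be 0.322 of that in WT. With Cre-ERT2 the libraries read 11.33, 11.33 and 11.31 in WT against 9.80, 9.79 and 9.84 in KO, or -1.51 ± 0.029. No KO library came within 1 log2 unit of a WT library.

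Gbp7, the most abundant member, was at 14.28, 14.30 and 14.30 in ERT2 WT and 13.24, 13.23 and 13.21 in ERT2 KO. It fell by 1.06 ± 0.019 with ERT2 and by 0.95 ± 0.019 with Cre-ERT2. These genes lie side by side with Gbp3 and Gbp5 on chromosome 3 (chr3:142530342-142638008, GRCm38). All 4 members there fell by at least 0.5 in both vectors, with Gbp3 at -0.95 ± 0.033 and Gbp5 at -0.53 ± 0.028 in the ERT2 libraries.

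Gbp4, Gbp6, Gbp9 and Gbp11 form a second cluster on chromosome 5 (chr5:105077630-105346472), and 3 of its 4 members fell by at least 0.5 in both vectors. Gbp9 was at 9.82, 9.75 and 9.79 in ERT2 WT and 8.67, 8.62 and 8.65 in ERT2 KO, a difference of -1.14 ± 0.032. Gbp4 fell by 1.15 ± 0.160 with ERT2. It was also the most variable member, with ERT2 WT libraries at 8.03, 7.54 and 8.24 and an SD of 0.36. Its span overlaps those of Gbp9 and Gbp8 on the same strand, and guanylate-binding proteins are close copies of each other, so the split of reads between them is uncertain. Gbp5 and Gbp6 likewise overlap a neighbouring gene of the family.

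On chromosome 11, the immunity-related GTPases Irgm1, Irgm2, Igtp and Ifi47 fell, 4 of 4 in both vectors. Of all genes, 29.3% fell with ERT2 and 28.6% with Cre-ERT2. By at least 0.5, 2 of these 4 fell in each vector. Ifi47 was at 10.79, 10.84 and 10.83 in ERT2 WT and 9.79, 9.81 and 9.79 in ERT2 KO, a difference of -1.03 ± 0.031. Igtp was at 8.81, 8.73 and 8.80 in ERT2 WT and 8.34, 8.33 and 8.32 in ERT2 KO, a difference of -0.45 ± 0.027. The spans of Igtp and Irgm2 overlap on the same strand, and Ifi47, Irf9, Ifitm2 and Ifi203 each overlap a gene outside the members on their own strand. Gbp2 with an ISRE match and Ifi47 without one, shown above, both fell by more than 1 log2 unit, and the part of the match in these falls was not tested.

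**Figure D2:**
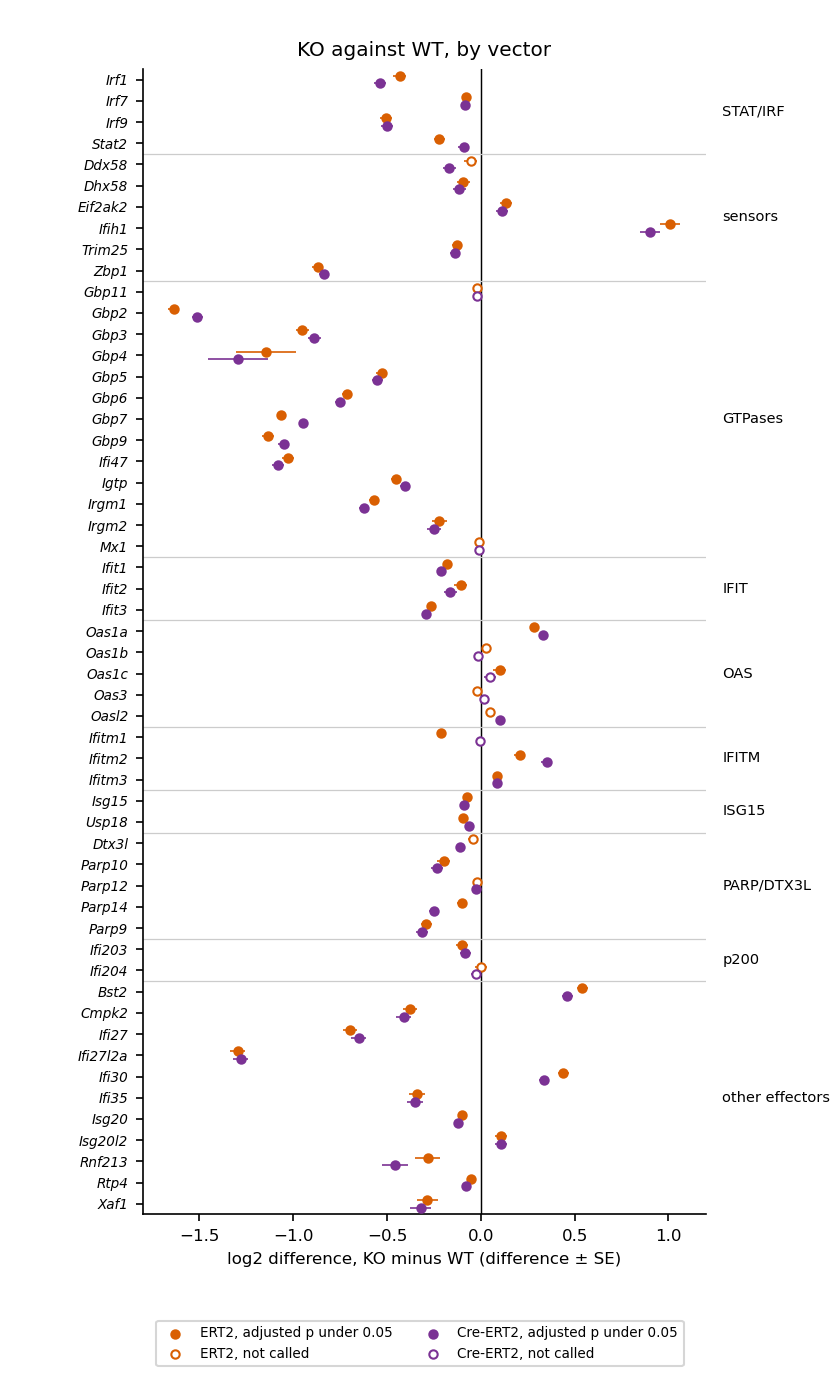
Log2 difference KO minus WT of 54 members (rows, grouped by role) in ERT2 libraries (orange) and Cre-ERT2 libraries (purple), with SE bars from the fit of 3 libraries per group. Filled points passed an adjusted p of 0.05. The GTPases reach -1.64 for Gbp2, while Ifih1 stands at 1.01 and 0.90 on the other side of 0.

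The sensors of foreign RNA and DNA were split. Ifih1, which encodes the long double-stranded RNA sensor MDA5, showed the largest rise of all members. Its libraries were at 7.20, 7.24 and 7.26 in ERT2 WT and 8.22, 8.24 and 8.27 in ERT2 KO. The rise was 1.01 ± 0.053 on the log2 scale (adjusted p = 4.4e-09, limma), which would be 2.01-fold if the scale is plain log2. With Cre-ERT2 the difference was 0.90 ± 0.053. The WT and KO libraries did not overlap.

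Zbp1, a sensor of Z-form nucleic acids that triggers cell death, moved the opposite way. It was at 7.09, 7.15 and 7.13 in ERT2 WT and 6.24, 6.28 and 6.25 in ERT2 KO, or -0.87 ± 0.028. The other RNA sensors moved little. Ddx58 (RIG-I) was at -0.054 ± 0.035 with ERT2, not called, and fell by 0.17 ± 0.035 with Cre-ERT2. Dhx58 (LGP2) fell by 0.094 ± 0.034 with ERT2, a call lost without any 1 of ERT2 WT replicate 1, ERT2 WT replicate 3, ERT2 KO replicate 2 or ERT2 KO replicate 3, at adjusted p from 0.063 to 0.13 (limma). Eif2ak2, the kinase PKR that halts translation, rose by 0.13 ± 0.032.

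Other antiviral effectors act on viral RNA. The 3 IFIT genes fell in both vectors, by 0.11 to 0.27 with ERT2. Of all genes, 29.3% fell with ERT2 and 28.6% with Cre-ERT2. Of the 5 genes of the oligoadenylate synthetase family, 2 rose and 0 fell in each vector. This was a share of 40% against 29.8% of all genes with ERT2 and 30.4% with Cre-ERT2. Oas1a rose in both vectors, Oas1c was called with ERT2 and Oasl2 with Cre-ERT2. Oas1a was at 6.08, 6.08 and 6.09 in ERT2 WT and 6.39, 6.34 and 6.37 in ERT2 KO, a rise of 0.28 ± 0.023, and Oas1 genes are close copies whose reads may be shared.

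Ifitm2, a membrane protein that blocks viral entry, rose by 0.21 ± 0.030 with ERT2 and 0.35 ± 0.030 with Cre-ERT2. Isg15, a ubiquitin-like modifier, and Usp18, the protease that removes it, fell by 0.073 ± 0.013 and 0.097 ± 0.019 with ERT2. Both are weak, and the 13 members with a mean below 5 moved by at most 0.21 in either direction with ERT2. Among these 13, 7 were called with ERT2, 6 lower and 1 higher, and the share over all genes below 5 was not computed.

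The other effectors comprised 11 genes, of which 8 fell and 3 rose in both vectors. The falls were 72.7%, against 29.3% of all genes with ERT2 and 28.6% with Cre-ERT2. The rises were 27.3%, near the 29.8% and 30.4% of all genes. Ifi27l2a, a mitochondrial protein of the Ifi27 family, was at 8.92, 8.90 and 8.93 in ERT2 WT and 7.61, 7.59 and 7.67 in ERT2 KO, a difference of -1.30 ± 0.039. Its neighbour Ifi27 on chromosome 12 fell by 0.70 ± 0.038. Bst2 (tetherin), which holds budding virions on the cell, rose from 6.07, 6.08 and 6.10 to 6.63, 6.65 and 6.59, or by 0.54 ± 0.028. Ifi30, a lysosomal thiol reductase of antigen processing, was at 9.29, 9.31 and 9.37 in ERT2 WT and 9.78, 9.74 and 9.76 in ERT2 KO, higher by 0.44 ± 0.029. Bst2 also marks plasmacytoid dendritic cells and was left out of the marker sum given above. Of the other markers of these cells, Tcf4 was higher in KO and Ly6d and Flt3 were lower.

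**Figure D3:**
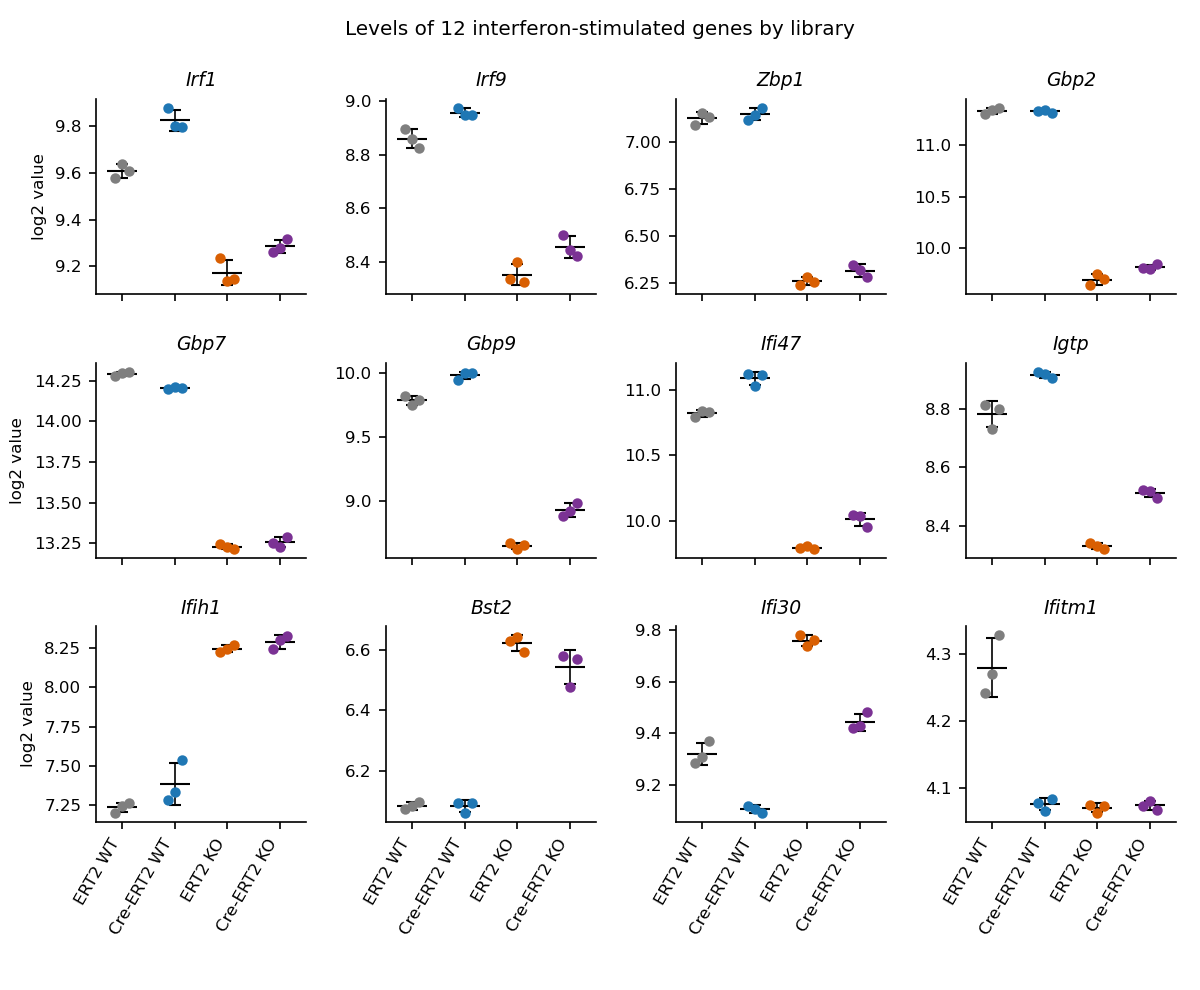
Log2 values of 12 members by library, with 3 points per group, a horizontal bar at the mean and error bars of 1 SD. Each panel has its own vertical axis, which does not start at 0. Irf1, Irf9, Zbp1, Gbp2, Gbp7, Gbp9, Ifi47 and Igtp are lower in the KO groups, Ifih1, Bst2 and Ifi30 are higher, and Ifitm1 is high in ERT2 WT only.

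The size of the difference varied with the level of the gene. Of the 28 members with a mean above 8, 22 fell and 4 rose with ERT2, 11 and 0 of them by at least 0.5. Their median log2 difference was -0.32. Of the 14 members from 5 to 8, 9 fell and 4 rose. Below 5, the median was -0.023. Over all genes at any level, 29.3% were lower and 29.8% higher, and shares over all genes at each level were not computed. Weak members are narrow in this table as are other weak genes, and whether their RNA changed less could not be told from these values.

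**Figure D4:**
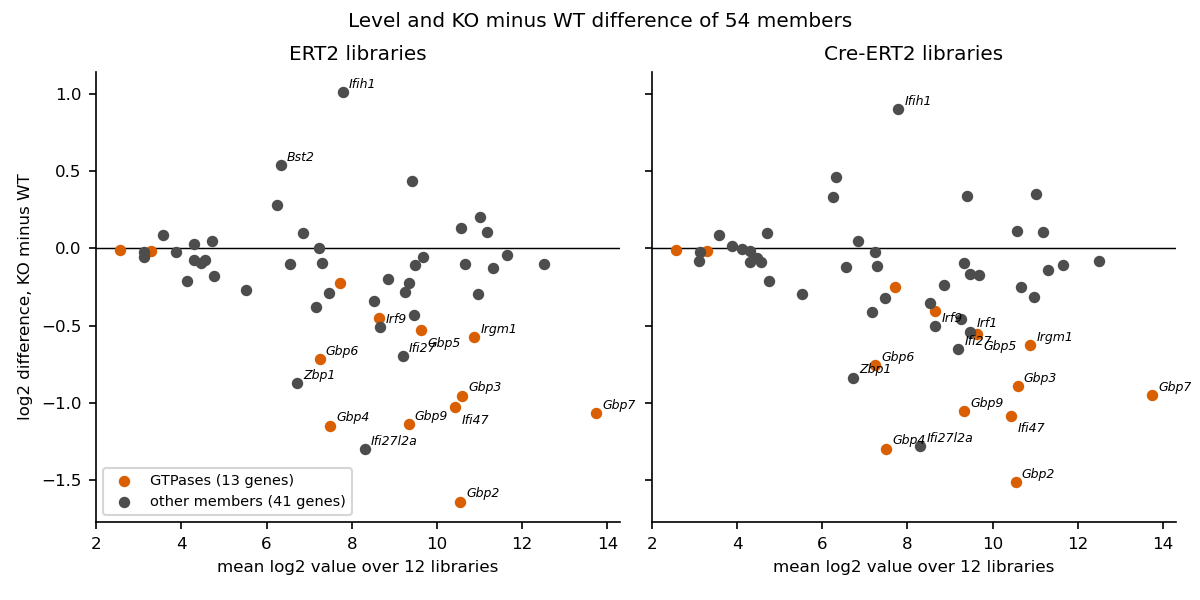
Mean log2 value over the 12 libraries (horizontal) against the log2 difference KO minus WT (vertical) for 54 members, in ERT2 and Cre-ERT2 libraries. The 13 GTPases are orange and the other 41 members grey, and members past 0.5 in either direction are named. Members below a level of 5 stay within 0.21 of 0 with ERT2, and falls past 1 with ERT2 run from Gbp4 at 7.49 to Gbp7 at 13.75.

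Genes of the interferon pathway that are no members were read from a list of 37 signalling genes, of which 31 were in the table. With ERT2, 12 of the 31 rose and 12 fell in KO, or 38.7% each against 29.8% and 29.3% of all genes. With Cre-ERT2, 8 (25.8%) rose and 14 (45.2%) fell, against 30.4% and 28.6%. Of the receptors, Ifngr1 was at 10.80, 10.84 and 10.89 in ERT2 WT and 10.30, 10.35 and 10.47 in ERT2 KO. It was lower in KO by 0.47 ± 0.039 with ERT2 and by 0.58 ± 0.039 with Cre-ERT2, and Il10rb, a chain of the interferon-λ receptor, by 0.51 and 0.60. Ifnar1 was lower by 0.27 ± 0.025 and 0.29 ± 0.025. Ifnar2, at -0.081 ± 0.041 with ERT2, was called with Cre-ERT2 alone, at -0.25 ± 0.041, and Ifngr2, at -0.059 ± 0.053 and -0.025 ± 0.053, in neither vector. The feedback inhibitor Socs1, itself an interferon target, was at 9.03, 8.84 and 8.83 in ERT2 WT and 7.58, 7.36 and 7.64 in ERT2 KO, a difference of -1.37 ± 0.069. Irf4 fell by 0.77 ± 0.027 and the DNA sensor Tlr9 by 0.60 ± 0.028.

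Other signalling genes were higher. Irf8, a lineage factor of B cells and myeloid cells, was at 11.23, 11.21 and 11.25 in ERT2 WT and 12.14, 12.18 and 12.24 in ERT2 KO, a rise of 0.96 ± 0.028. Irf2, an antagonist of Irf1, rose by 0.32 ± 0.036 and Stat3 by 0.24 ± 0.032.

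Cre-ERT2 against ERT2 asked how Cre activity with stabilisation of β-catenin changed the members, first in WT. Ctnnb1 RNA itself was at 12.44, 12.43 and 12.46 in ERT2 WT and 12.51, 12.50 and 12.53 in Cre-ERT2 WT, not called (adjusted p = 0.13, limma), and it rose by 0.13 ± 0.025 in KO. More members rose than fell, and the changes were small. In WT, 11 members (20%) rose and 5 (9.09%) fell, against 5.93% and 5.95% of all genes. No called change of a member reached 0.5 in either genotype, and the median in WT over the members was 0.029. In KO, 12 members (21.8%) rose and 2 (3.64%) fell, against 7.27% and 5.33% of all genes. Some of these counts depended on single libraries. The count of 12 was 7 without Cre-ERT2 KO replicate 2. The count of 5 was 3 without ERT2 WT replicate 2, ERT2 WT replicate 3 or Cre-ERT2 WT replicate 3, and the count of 2 was 1 without ERT2 WT replicate 2, ERT2 KO replicate 1, ERT2 KO replicate 2, Cre-ERT2 KO replicate 2 or Cre-ERT2 KO replicate 3.

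Both comparisons rest on separate libraries but share the vectors, and their independence was not tested. Deviations of Cre-ERT2 WT and Cre-ERT2 KO libraries correlated at -0.35 to 0.36. Of the members that rose, 7 did so in WT and in KO, 63.6% of the WT list and 58.3% of the KO list. They were Gbp5, Gbp9, Ifi47, Igtp, Ifi203, Dtx3l and Parp9. Ifi30 and Isg20l2 fell in both, and 0 members were called in opposite directions. These overlaps were not computed over all genes.

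The GTPases held 6 of the 11 rises in WT and 5 of the 12 in KO. These were 46.2% and 38.5% of the 13 GTPases, against 5.93% and 7.27% of all genes. Ifi47 rose from 10.79, 10.84 and 10.83 in ERT2 WT to 11.12, 11.03 and 11.12 in Cre-ERT2 WT, by 0.27 ± 0.031. In KO it rose from 9.79, 9.81 and 9.79 to 10.04, 10.03 and 9.95, by 0.22 ± 0.031. Its Cre-ERT2 KO libraries still lay below every WT library. Gbp9 rose by 0.19 ± 0.032 in WT and 0.28 ± 0.032 in KO, Gbp5 by 0.17 ± 0.028 and 0.15 ± 0.028, and Igtp by 0.14 ± 0.027 and 0.18 ± 0.027. Gbp2, which fell most in KO, was at -0.0069 ± 0.029 in WT, not called, and rose by 0.12 ± 0.029 in KO.

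Of the upstream factors, Irf1 was at 9.58, 9.64 and 9.60 in ERT2 WT and 9.88, 9.80 and 9.80 in Cre-ERT2 WT, a rise of 0.22 ± 0.034. In KO its difference of 0.11 ± 0.034 missed the threshold (adjusted p = 0.052, limma), and it passed without ERT2 KO replicate 1 (adjusted p = 0.021) or without Cre-ERT2 WT replicate 1 (adjusted p = 0.045). Stat2 rose in KO by 0.18 ± 0.028 and was at 0.050 ± 0.028 in WT. Irf9 rose in KO by 0.10 ± 0.031 at adjusted p = 0.049 (limma), a call lost without any 1 of 10 of the 12 libraries.

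The neighbours Dtx3l, Parp9 and Parp14, which encode a ubiquitin ligase and ADP-ribosyltransferases that act together in the interferon response, rose in WT. They were 3 of 5 members (60%) of that group, against 5.93% of all genes. Dtx3l was at 11.58, 11.64 and 11.62 in ERT2 WT and 11.78, 11.78 and 11.77 in Cre-ERT2 WT, a rise of 0.16 ± 0.025. In KO it rose by 0.094 ± 0.025. Dtx3l and Parp9 overlap on opposite strands.

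**Figure D5:**
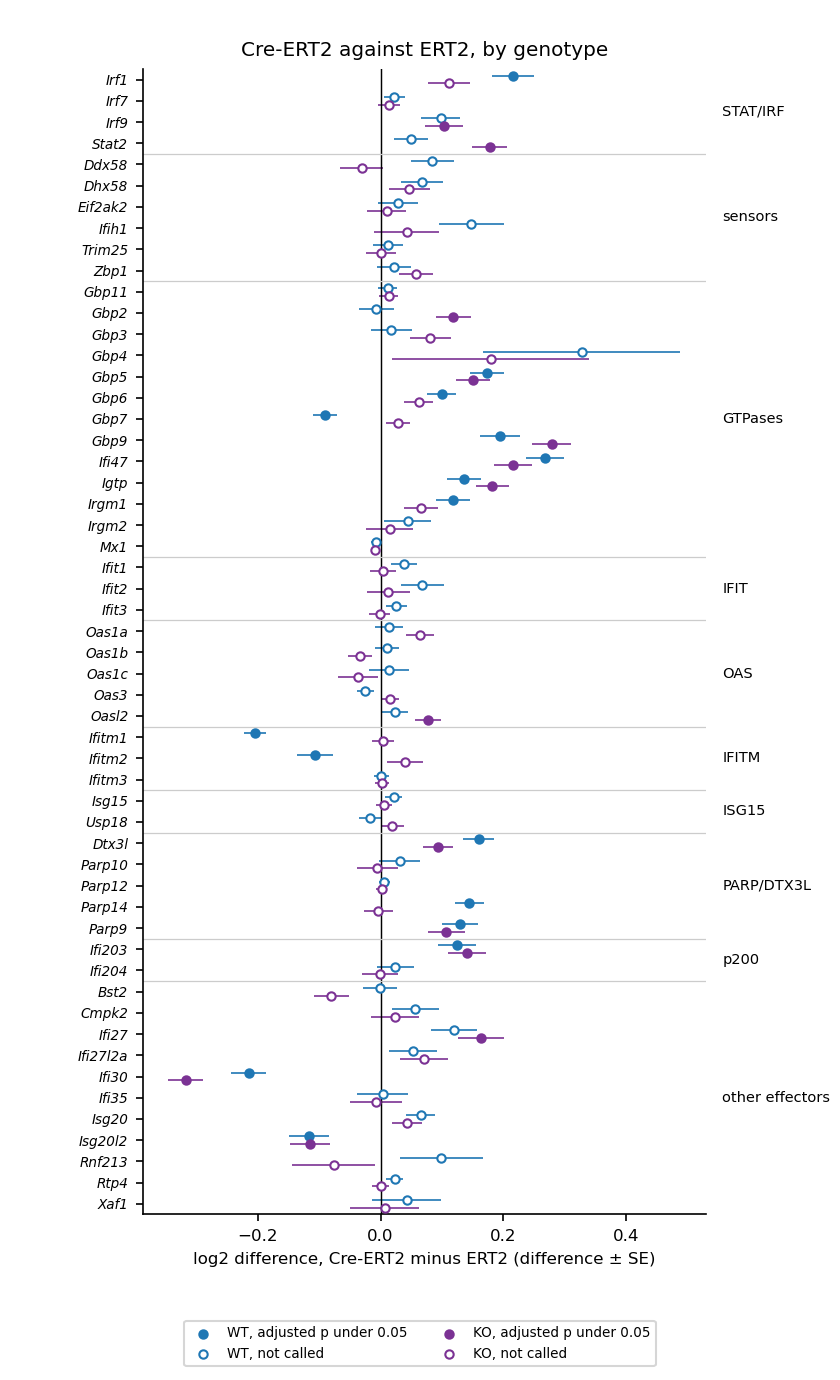
Log2 difference Cre-ERT2 minus ERT2 of 54 members (rows, grouped by role) in WT libraries (blue) and KO libraries (purple), with SE bars from the fit of 3 libraries per group. Filled points passed an adjusted p of 0.05. The called rises end at 0.28 for Gbp9, the called falls at -0.32 for Ifi30, and the widest bars are those of Gbp4.

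Ifi30 showed the largest fall with Cre-ERT2. It went from 9.29, 9.31 and 9.37 to 9.12, 9.11 and 9.09 in WT, by 0.21 ± 0.029, and from 9.78, 9.74 and 9.76 to 9.42, 9.43 and 9.48 in KO, by 0.32 ± 0.029. Isg20l2, an exonuclease of ribosome biogenesis related to Isg20 by sequence, fell by 0.12 ± 0.032 in both. Its calls were lost without single libraries, 4 of them in WT and 5 in KO. Ifitm2 fell by 0.11 ± 0.030 in WT, a call lost without any 1 of ERT2 WT replicates 1, 2 and 3 or Cre-ERT2 WT replicates 1 and 3. Bst2 and Ifih1, the members that rose most in KO, were at -0.00081 ± 0.028 and 0.15 ± 0.053 in WT, not called, and Ifih1 passed without Cre-ERT2 WT replicate 1 (adjusted p = 0.034, limma).

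Of the 31 signalling genes, 4 (12.9%) rose and 2 (6.45%) fell with Cre-ERT2 in WT, against 5.93% and 5.95% of all genes. In KO, 5 (16.1%) rose and 2 (6.45%) fell, against 7.27% and 5.33%, so the falls were near the background in both. Irf4 rose by 0.26 ± 0.027 in WT and by 0.51 ± 0.027 in KO. Tmem173, which encodes the adaptor STING, rose by 0.30 ± 0.056 and 0.34 ± 0.056, and the corepressor Irf2bp2 by 0.32 ± 0.036 and 0.20 ± 0.036. Irf8 rose by 0.18 ± 0.028 in WT and by 0.15 ± 0.028 in KO. The genes called lower were Socs3 and Ptpn6, inhibitors of cytokine signalling, in WT, and Traf3 and Irf5 in KO.

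Whether the Cre-ERT2 effect differed between KO and WT was tested as an interaction. Among the members, 2 were called higher and 1 lower, against 2.71% and 1.82% of all genes. A share of 3.64% and 1.82% of the members is near the background. The 3 genes were Ifitm1, Gbp7 and Parp14. Socs3 and Irf4 were called higher among the 31 signalling genes, by 0.19 ± 0.048 and 0.25 ± 0.038.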

How the data were processed

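Poly(A) RNA libraries (stranded kit) were sequenced by the authors as paired-end reads. Per the labels and the study's methods, the authors used Salmon 1.4.0, STAR 2.7.6 (mm10, GRCm38) and DESeq2 1.30.1. Values in the deposited table are on a log2 scale, normalised between libraries by the authors, without counts. The transformation and any filter on genes are not given in the sources used here. Groups came from the sample titles. The 12 columns were fitted as deposited with limma 3.58.1 in R 4.3.3 (4 group means, eBayes with trend, no covariate), and p-values were adjusted by the Benjamini-Hochberg method over 12151 genes for each of 5 contrasts. With 3 libraries a group, an exact permutation test cannot go below 0.1. The fit was tested on simulated data. The members, gene lists and contrasts were chosen with earlier results of these data known. Named were 12 fixed members, the 5 largest called rises and falls per contrast, all members called in the interaction, and the 3 largest called rises and falls of each other list. Gbp3, Gbp5, Zbp1 and the other members given with values outside this rule were added after their values were seen. Alternatives were another scaling (library median, quantile), thresholds, prior, level filter, replicate block, the groups compared alone, unlogged values with a pseudocount of 1, and leaving out each library. Of the 55 members, 1 is counted but not reported here and is left out of the figures. Gene positions are from GENCODE vM21 (GRCm38).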

Additional observations from a re-analysis of the deposited data

Results flagged for a closer look

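The Cre-ERT2 effect was called different between KO and WT in 3 members (limma interaction term, adjusted over 12151 genes). These were 3.64% of the members called higher and 1.82% called lower, near the 2.71% and 1.82% of all genes. Ifitm1, an antiviral membrane protein, differed by 0.21 ± 0.025 (adjusted p = 4.2e-04). It was at 4.24, 4.27 and 4.33 in ERT2 WT and between 4.06 and 4.08 in the other 9 libraries, so a single group stood apart, at a level where values are narrow. Its call held without any single library.

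Parp14, an ADP-ribosyltransferase, differed by -0.15 ± 0.033 (adjusted p = 0.025, limma). It rose from 10.66, 10.71 and 10.68 to 10.84, 10.83 and 10.82 with Cre-ERT2 in WT, and was at 10.59, 10.54 and 10.61 against 10.57, 10.57 and 10.59 in KO. The call was lost without ERT2 WT replicate 1 or 3, Cre-ERT2 WT replicate 1 or 2, ERT2 KO replicate 1 or 3, or Cre-ERT2 KO replicate 2.

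Gbp7 differed by 0.12 ± 0.027 (adjusted p = 0.031, limma). It went from 14.28, 14.30 and 14.30 to 14.20, 14.21 and 14.20 in WT, and from 13.24, 13.23 and 13.21 to 13.25, 13.23 and 13.29 in KO. The call was lost without ERT2 WT replicate 2 or 3, any Cre-ERT2 WT replicate, or ERT2 KO replicate 2 or 3.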

How the results depend on the processing

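Counts of members called are given as higher and lower. At an adjusted p under 0.01 they were 7 and 3 for Cre-ERT2 in WT, 5 and 1 for Cre-ERT2 in KO, and 1 and 0 for the interaction. With only the groups compared in the fit they were 5 and 1 for Cre-ERT2 in KO, with 3 lower in WT. Restricted to genes with a mean above 8, KO against WT gave 4 and 22 with ERT2 and 4 and 24 with Cre-ERT2, since fewer members enter, and the interaction gave 1 higher. Quantile normalisation left 3 lower for Cre-ERT2 in WT and 1 higher in the interaction, as did centring on the library median for the latter. A change of at least 0.5, a threshold chosen after seeing the data, left 0 and 0 for either Cre-ERT2 comparison and for the interaction, 2 and 14 for KO against WT with ERT2, and 1 and 15 with Cre-ERT2. The cause of these shifts was otherwise not tested.

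Leaving out 1 library in turn gave 34 to 38 lower and 7 to 10 higher for KO against WT with ERT2, and 35 to 39 lower and 8 to 9 higher with Cre-ERT2. It gave 8 to 12 higher and 3 to 5 lower for Cre-ERT2 in WT, 7 to 12 higher and 1 to 2 lower in KO, and 1 to 3 higher and 0 to 1 lower for the interaction. The median of the members under KO stayed below 0 when centred on the library median (-0.16 with ERT2) and after quantile normalisation (-0.18). The replicate numbers did not pair the libraries, with correlations of deviations from -0.091 to 0.31 and 2 of 18 pairs over 0.1. Among pairs with unlike numbers, Cre-ERT2 WT replicate 2 was at 0.36 with Cre-ERT2 KO replicate 3. It was at -0.35 with Cre-ERT2 KO replicate 1. A batch shared under other numbering was not tested. A replicate block gave 10 and 38 for KO against WT with ERT2, 9 and 39 with Cre-ERT2, 12 and 5 for Cre-ERT2 in WT, 12 and 2 in KO, and 1 and 0 for the interaction. Of 94 results on named members, 78 kept direction and side of the threshold under all 20 settings, 12 fell below it under at least 1 and 4 rose above it. None reversed. Without read counts, depth and its limits are unknown.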

Other observations

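Interferon-induced genes outside the symbol rule were read from a further list of 65, of which 59 were in the table. In KO with ERT2, 38 of the 59 (64.4%) were lower and 12 (20.3%) higher, against 29.3% and 29.8% of all genes. With Cre-ERT2, 41 (69.5%) were lower and 11 (18.6%) higher, against 28.6% and 30.4%. Ly6a, the Sca-1 antigen, had the largest fall. It went from 8.21, 8.30 and 8.35 in ERT2 WT to 6.70, 6.67 and 6.77 in ERT2 KO and fell by 1.57 ± 0.038. Pyhin1, a DNA-binding protein of the p200 family, fell by 1.52 ± 0.034 and Epsti1 by 0.90 ± 0.030. Casp1, the inflammatory caspase, rose from 6.45, 6.43 and 6.44 to 7.65, 7.66 and 7.70, by 1.23 ± 0.022, and the RNA helicase Mov10 by 0.56 ± 0.030. Tor3a rose by 0.49 ± 0.046 with ERT2 and 0.47 ± 0.046 with Cre-ERT2, and Mlkl, the effector of necroptosis, by 0.48 ± 0.038 and 0.53 ± 0.038.

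With Cre-ERT2, 9 of the 59 (15.3%) rose and 1 (1.69%) fell in each genotype, against 5.93% higher and 5.95% lower of all genes in WT and 7.27% and 5.33% in KO. Ly6a fell by 0.23 ± 0.038 in WT and Tnfaip8l2 by 0.12 ± 0.036 in KO. Epsti1 rose by 0.27 ± 0.030 in WT and 0.33 ± 0.030 in KO, and Pyhin1 by 0.23 ± 0.034 and 0.41 ± 0.034. Pnp rose by 0.29 ± 0.043 in WT and was at 0.13 ± 0.043 in KO, without a call. Lgals9, a galectin, rose from 13.66, 13.67 and 13.67 to 14.21, 14.24 and 14.22 in WT, by 0.56 ± 0.020, and by 0.40 ± 0.020 in KO, and the difference of -0.16 ± 0.029 passed the interaction test (adjusted p = 0.0068, limma). Samhd1, which depletes deoxynucleotides, was at 8.57, 8.67 and 8.82 in ERT2 WT and 8.62, 8.72 and 8.77 in Cre-ERT2 WT. In KO it rose from 8.83, 8.78 and 8.75 to 9.38, 9.40 and 9.38, by 0.60 ± 0.056, and its interaction was 0.59 ± 0.079 (adjusted p = 9.3e-04, limma).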
